A study of Homo sapiens with 30 samples.

Results

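The neutrophil-attracting CXC chemokines were examined as 6 genes, IL8, CXCL1, CXCL2, CXCL3, CXCL5 and CXCL6, which were found by symbol among the 57373 genes of the count table (IL8 is the symbol used there for CXCL8). All 6 were present. IL8, CXCL3, CXCL5 and CXCL6 passed the filter on low counts and were tested, and CXCL1 and CXCL2 did not pass it. The genes were measured by RNA-seq in U2OS, a human osteosarcoma cell line, in 6 groups of 5 biological replicates. Cells were transfected with a plasmid for FOXP2 without residues 264 to 272 (dhelix FOXP2) or for wild-type FOXP2 (WT FOXP2), each after CHIR99021 (CHIR) or without it. The other 2 groups received CHIR without a FOXP2 plasmid (CHIR) or neither (mock). FOXP2 is a forkhead transcription factor, and CHIR99021 inhibits glycogen synthase kinase 3 and is widely used to activate Wnt signalling. CHIR was given at 5 µM from 72 hours before transfection, and transfection with 500 ng of plasmid lasted 48 hours. The labels do not say whether mock and CHIR cells received an empty plasmid, so FOXP2 and the presence of plasmid DNA cannot be told apart in a comparison of either construct with them. In these bulk samples, fewer cells of a kind and less RNA per cell cannot be told apart.

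Libraries held 15755842 to 29466652 counts. FOXP2 averaged 13481 CPM (counts scaled to a common library size) in dhelix FOXP2 + CHIR cells, 15299 CPM in WT FOXP2 + CHIR cells, 5319 CPM in dhelix FOXP2 cells, 7076 CPM in WT FOXP2 cells, 0.504 CPM in CHIR cells and 0.898 CPM in mock cells. Its level was lower in dhelix FOXP2 than in WT FOXP2 cells, with a log2 fold change of -0.41 ± 0.08 (SE, adjusted p = 0.00034 in edgeR). AXIN2, a Wnt target that serves as a check on CHIR, averaged 145 CPM in CHIR cells and 21.0 CPM in mock cells. The summed level of 6 mesenchymal and osteosarcoma markers, the cell line's own, was 2157 to 2341 CPM per library in dhelix FOXP2 + CHIR cells, 2037 to 2184 CPM in WT FOXP2 + CHIR cells, 3403 to 3485 CPM in dhelix FOXP2 cells, 3611 to 3772 CPM in WT FOXP2 cells, 2833 to 3513 CPM in CHIR cells and 5243 to 5441 CPM in mock cells, so every other group was below mock. Of these markers COL1A2 was near 0 throughout, and COL1A1 fell by 2.58 ± 0.11 and RUNX2 fell by 2.89 ± 0.06 in WT FOXP2 against mock (adjusted p = 3.5e-18 and 3.1e-32 in edgeR). Not all fell: of the 5 tested, 2 rose and 3 fell there, where 39.9% of all genes rose and 41.6% fell. ALPL rose by 2.68 ± 0.12 in that comparison (adjusted p = 3e-21), and RUNX2 rose by 0.89 ± 0.05 in CHIR against mock (adjusted p = 2.7e-19). The part of these changes in the chemokine levels was not tested. Earlier results of these data set CHIR replicate 1, dhelix FOXP2 replicate 5 and WT FOXP2 + CHIR replicate 4 apart from their groups. No call on the 4 tested genes changed when those 3 libraries were left out together.

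CXC chemokines with a glutamate-leucine-arginine motif before their first cysteines are small secreted proteins that bind the receptors CXCR1 and CXCR2 and draw neutrophils into inflamed tissue. Their genes lie in a cluster on chromosome 4 and are known as rapid targets of NF-κB, AP-1 and C/EBP factors after interleukin-1 or tumour necrosis factor, and their mRNAs are known to be short-lived. Tumour cells can make them too, and there they are known for promoting angiogenesis and recruiting myeloid cells.

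The promoters are shown because they group the genes by sequence and place the NF-κB element that all of them hold. All 6 genes were matched by symbol to the RefSeq promoter set (GRCh38.p14), which holds 250 bases before and 50 after each start site. The 160 bases from position -150 to position 10 are printed 5′ to 3′ on the coding strand, with capitals for the NF-κB element GGAATTTCC and for the AP-1 element TGANTCA.
IL8 (chr4:73740419-73740578, plus strand): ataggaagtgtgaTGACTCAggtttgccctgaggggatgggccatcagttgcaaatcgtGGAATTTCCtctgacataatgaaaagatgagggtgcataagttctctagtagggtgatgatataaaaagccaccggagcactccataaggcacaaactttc
CXCL3 (chr4:74038680-74038839, minus strand): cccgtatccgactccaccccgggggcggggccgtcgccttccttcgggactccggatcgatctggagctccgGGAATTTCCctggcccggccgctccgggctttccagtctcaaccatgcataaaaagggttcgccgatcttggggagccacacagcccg
CXCL1 (chr4:73869243-73869402, plus strand): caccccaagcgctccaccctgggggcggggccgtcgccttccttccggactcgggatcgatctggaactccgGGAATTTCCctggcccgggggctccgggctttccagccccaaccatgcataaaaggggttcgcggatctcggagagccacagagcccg
CXCL2 (chr4:74099186-74099345, minus strand): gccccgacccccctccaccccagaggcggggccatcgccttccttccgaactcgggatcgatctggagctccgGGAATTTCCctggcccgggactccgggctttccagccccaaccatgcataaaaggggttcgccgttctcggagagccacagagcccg
CXCL6 (chr4:73836528-73836687, plus strand): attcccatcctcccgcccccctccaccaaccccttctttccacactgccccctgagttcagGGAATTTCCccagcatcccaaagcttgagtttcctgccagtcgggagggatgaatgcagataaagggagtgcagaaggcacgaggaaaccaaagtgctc
CXCL5 (chr4:73998668-73998827, minus strand): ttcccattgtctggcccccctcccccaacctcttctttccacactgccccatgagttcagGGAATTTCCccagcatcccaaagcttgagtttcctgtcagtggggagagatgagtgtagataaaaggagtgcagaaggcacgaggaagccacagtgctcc

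GGAATTTCC began at position -91 in IL8, -78 in CXCL3, -78 in CXCL1, -77 in CXCL2, -89 in CXCL6 and -90 in CXCL5. That element, searched on both strands, was present in 129 of 27305 promoters of the same length, which is 0.472%. In every member but IL8 it overlapped a match to the general NF-κB consensus, which 5.72% of promoters held. Of the 6, IL8 alone held TGANTCA, at position -137, which 7.76% of promoters held, and CTTTGAT, a TCF/LEF element, at position -194, which 2.64% held. TNTTTAC, a forkhead element, was in none of the 6 windows and in 11.0% of all promoters. A match is a description of letters and not a site of binding. By alignment over 300 bases, CXCL1 and CXCL3 were 82.5% identical and CXCL5 and CXCL6 were 83.1% identical, whereas IL8 was 45.2% to 48.0% identical to the other 5.

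IL8 (ENSG00000169429), the best-known neutrophil chemoattractant of the family, was among the genes that differed most between FOXP2-transfected and mock cells. Its level in the 5 libraries of each group was 78.4, 87.6, 85.6, 86.5 and 88.8 CPM in dhelix FOXP2 + CHIR cells and 78.8, 73.8, 74.0, 74.9 and 66.0 CPM in WT FOXP2 + CHIR cells. It was 43.9, 53.0, 44.5, 41.6 and 46.1 CPM in dhelix FOXP2 cells and 82.1, 88.9, 80.4, 98.5 and 87.6 CPM in WT FOXP2 cells. It was 5.29, 3.23, 3.30, 3.73 and 2.98 CPM in CHIR cells and 0.535, 0.294, 0.330, 0.477 and 0.231 CPM in mock cells. Every FOXP2 library stood far above every library without FOXP2, and every CHIR library stood above every mock library. In the mock libraries these levels rest on 4 to 11 counts each.

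The order of IL8 levels was WT FOXP2 (87.5 ± 7.11 CPM), dhelix FOXP2 + CHIR (85.4 ± 4.09 CPM), WT FOXP2 + CHIR (73.5 ± 4.63 CPM), dhelix FOXP2 (45.8 ± 4.31 CPM), CHIR (3.71 ± 0.926 CPM) and mock (0.373 ± 0.128 CPM, SD, n = 5 each). WT FOXP2 overlapped dhelix FOXP2 + CHIR in that order, dhelix FOXP2 + CHIR overlapped WT FOXP2 + CHIR, and the other neighbours did not overlap. Against mock cells, IL8 rose in WT FOXP2 cells by 7.86 ± 0.13 on the log2 scale (SE, adjusted p = 1.8e-34), in dhelix FOXP2 cells by 6.93 ± 0.14 (adjusted p = 5.6e-32) and in CHIR cells by 3.31 ± 0.23 (adjusted p = 1.4e-15) in edgeR. These comparisons share the mock libraries. The difference in WT FOXP2 cells, 233-fold, ranked 24 from the top among 18485 genes tested.

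CXCL3 (ENSG00000163734), a close relative of CXCL1 and CXCL2 that signals through CXCR2, was likewise higher in every FOXP2 library than in any library without FOXP2. It was at 19.2, 17.6, 17.2, 20.1 and 18.5 CPM in dhelix FOXP2 + CHIR cells and at 26.9, 28.3, 25.7, 24.0 and 24.3 CPM in WT FOXP2 + CHIR cells. It was at 6.61, 7.43, 6.63, 6.20 and 5.90 CPM in dhelix FOXP2 cells and at 7.25, 9.63, 9.19, 10.2 and 9.67 CPM in WT FOXP2 cells. It was at 3.85, 3.11, 3.54, 3.22 and 2.56 CPM in CHIR cells and at 0.486, 0.196, 0.297, 0.298 and 0.288 CPM in mock cells. The highest libraries were those with both FOXP2 and CHIR, and of neighbouring groups in the order only dhelix FOXP2 and WT FOXP2 overlapped. CXCL3 rose against mock by 4.86 ± 0.16 in WT FOXP2 cells (adjusted p = 5.5e-26), by 4.37 ± 0.16 in dhelix FOXP2 cells (adjusted p = 6.3e-24) and by 3.36 ± 0.20 in CHIR cells (adjusted p = 8.4e-18), on the log2 scale with SE. Of the 75-base stretches in CXCL3 transcripts, 4.57% also occur in CXCL2, so a small part of its counts could be shared.

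CXCL6 (ENSG00000124875), also called granulocyte chemotactic protein, was detected almost only with CHIR. It was at 20.5, 13.0, 15.0, 17.7 and 11.1 CPM in CHIR cells, against 0 counts in each of the 5 mock libraries. With FOXP2 added it was at 1.46, 1.06, 1.37, 1.60 and 0.788 CPM in dhelix FOXP2 + CHIR cells and at 0.649, 0.569, 0.211, 0.334 and 0.456 CPM in WT FOXP2 + CHIR cells. Without CHIR it had 1 count in the dhelix FOXP2 libraries together and 0 counts in those of WT FOXP2. The CHIR libraries were the highest, those of WT FOXP2 + CHIR were the lowest of the groups with CHIR, and none of these groups overlapped another. Against a floor of 3 counts per library, CXCL6 was at least 109-fold higher in CHIR cells than in mock cells (adjusted p = 7.3e-20).

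CXCL5 (ENSG00000163735), which activates CXCR2 and is a close paralog of CXCL6, was low throughout. It was at 1.96, 1.99, 1.37, 2.98 and 1.80 CPM in dhelix FOXP2 + CHIR cells, at 1.01, 0.664, 0.474, 0.780 and 0.399 CPM in WT FOXP2 + CHIR cells and at 1.28, 0.435, 0.613, 0.569 and 0.476 CPM in CHIR cells. Without CHIR there were 13 counts in the dhelix FOXP2 libraries together, 2 in those of WT FOXP2 and 3 in those of mock, and all mock counts came from replicate 5. The libraries with both dhelix FOXP2 and CHIR were the highest and did not overlap any other group, whereas WT FOXP2 + CHIR and CHIR overlapped. The ratio of CHIR to mock was 24.4, with a 95% interval of 7.96 to 121 for counting error only, and the gene was called higher (adjusted p = 2.5e-07). In dhelix FOXP2 against mock CXCL5 was not called (13 against 3 counts, adjusted p = 0.12), and without mock replicate 5, which leaves 0 counts in mock, the adjusted p was 0.0076.

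CXCL1 (ENSG00000163739) and CXCL2 (ENSG00000081041), close relatives of CXCL3 that also signal through CXCR2, had at most 5 and 4 counts in a library. CXCL1 had 11 counts over the dhelix FOXP2 + CHIR libraries, 12 over WT FOXP2 + CHIR, 2 over dhelix FOXP2, 4 over WT FOXP2 and 0 over both CHIR and mock. CXCL2 had 3 counts over dhelix FOXP2 + CHIR, 11 over WT FOXP2 + CHIR, 1 over dhelix FOXP2, 4 over WT FOXP2 and 0 over both CHIR and mock. At this depth, counts of either gene were seen only in FOXP2-transfected cells. A count of 0 in the mock libraries allows up to 0.142 CPM, from 3 counts per library. Of the 75-base stretches in CXCL2 transcripts, 7.07% also occur in CXCL1 or CXCL3.

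**Figure D1:**
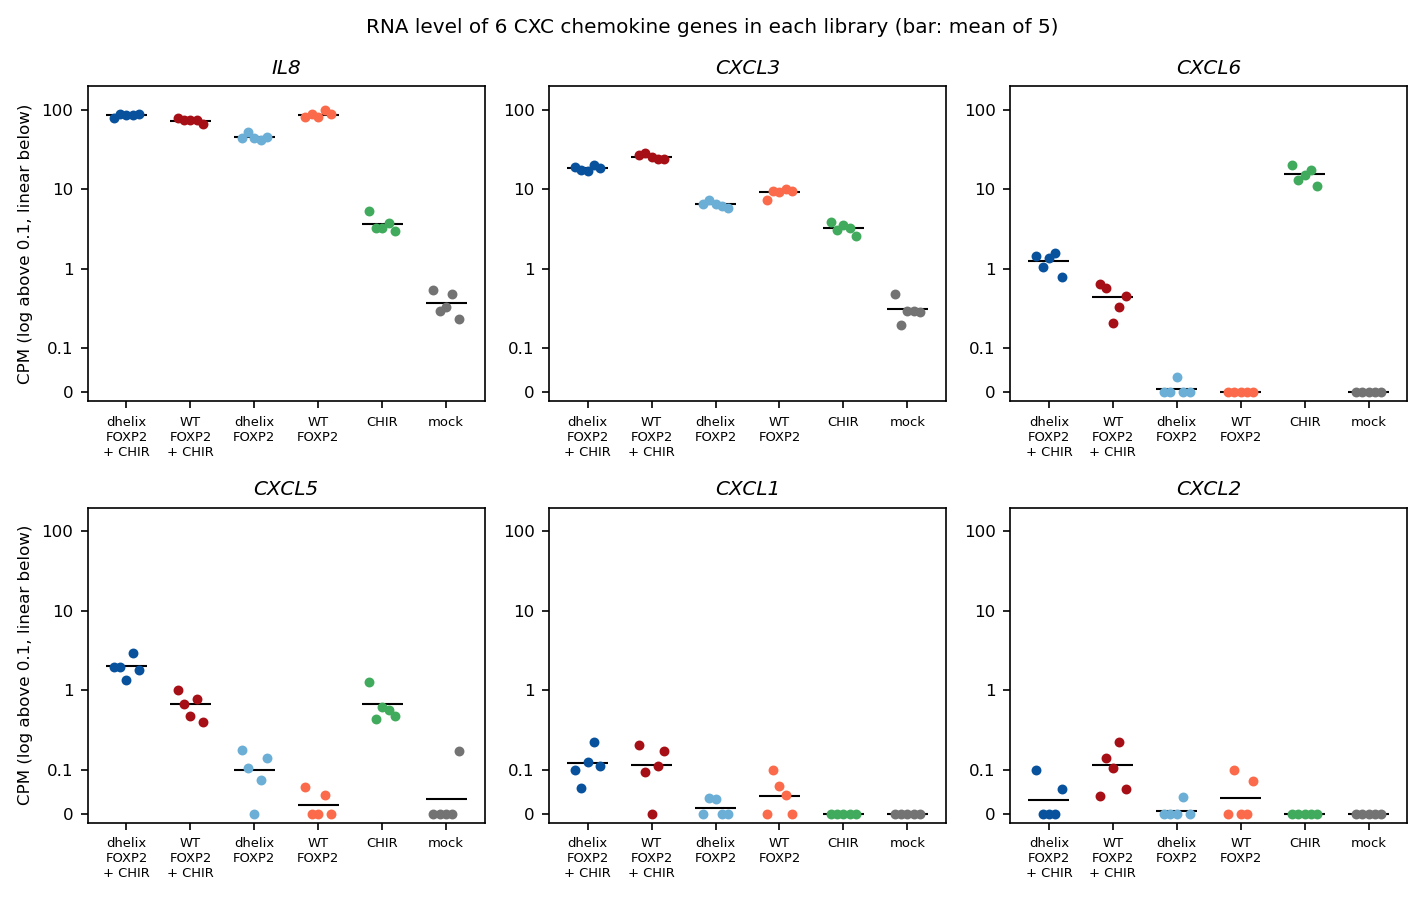
Level of each of the 6 genes in CPM (vertical axis, logarithmic above 0.1 CPM and linear below) in the 5 libraries of each group, with a bar at the mean. IL8 and CXCL3 are lowest in mock cells at 0.373 and 0.313 CPM, CXCL6 is highest in CHIR cells at 15.5 CPM, and CXCL1 and CXCL2 stay near 0.

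Levels of different genes were set side by side per length, as CPM per kb of the union of each gene's exons in GENCODE 29. IL8 held 37.6 ± 1.80 CPM per kb in dhelix FOXP2 + CHIR cells, 32.3 ± 2.04 in WT FOXP2 + CHIR cells, 20.1 ± 1.90 in dhelix FOXP2 cells and 38.5 ± 3.13 in WT FOXP2 cells, and was first of the 6 in these groups (SD, n = 5). CXCL3 came second there, at 8.34 ± 0.522 CPM per kb in dhelix FOXP2 + CHIR cells, 11.6 ± 0.817 in WT FOXP2 + CHIR cells, 2.95 ± 0.259 in dhelix FOXP2 cells and 4.14 ± 0.513 in WT FOXP2 cells. In CHIR cells the order was different, with CXCL6 first at 7.08 ± 1.72 CPM per kb, ahead of IL8 at 1.63 ± 0.407 and CXCL3 at 1.47 ± 0.219. In mock cells IL8 held 0.164 ± 0.0562 and CXCL3 0.141 ± 0.0477 CPM per kb. As a share of the summed level of the 6 genes per length, IL8 took 79.2% in dhelix FOXP2 + CHIR cells, 72.5% in WT FOXP2 + CHIR cells, 87.0% in dhelix FOXP2 cells, 90.2% in WT FOXP2 cells, 15.6% in CHIR cells and 51.6% in mock cells. CXCL6 took 67.6% in CHIR cells.

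**Figure D2:**
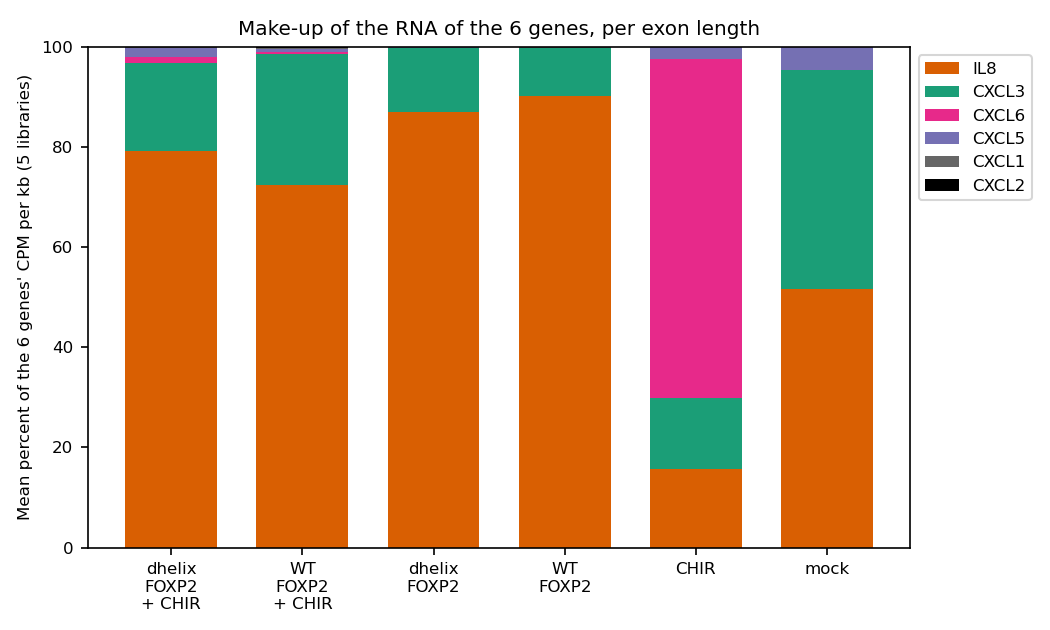
Mean share of each gene in the summed level of the 6 genes (vertical axis, percent of CPM per kb, 5 libraries per group). IL8 takes 72.5% to 90.2% in the groups with FOXP2, CXCL6 takes 67.6% in CHIR cells, and IL8 and CXCL3 hold most of the small total in mock cells.

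Of the 4 genes tested, IL8 and CXCL3 were called higher and none lower in WT FOXP2 against mock, where 39.9% of all genes tested were called higher and 41.6% lower. In dhelix FOXP2 against mock IL8 and CXCL3 were again the genes called, both higher, where 39.6% of all genes were called higher and 40.9% lower. All 4 were called higher in CHIR against mock, where 38.8% of all genes were called higher and 35.3% lower. CXCL5 and CXCL6 passed the filter on low counts through groups with CHIR, so their calls in CHIR against mock follow in part from the filter. The lowest and highest libraries were apart for 2 genes in WT FOXP2 against mock, beside 73.0% of all genes, for 2 in dhelix FOXP2 against mock, beside 73.2%, and for 4 in CHIR against mock, beside 57.7%. With so many genes called, these counts say little about the family. A difference of over 8-fold was rarer: 3.07% of all genes in WT FOXP2 cells, 2.92% in dhelix FOXP2 cells and 2.16% in CHIR cells were that much higher than in mock cells, and IL8 and CXCL3 were among them in each.

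With CHIR present in both groups, CXCL6 was lower with either construct while IL8 and CXCL3 were higher. In WT FOXP2 + CHIR against CHIR, IL8 rose by 4.30 ± 0.09 (adjusted p = 2.6e-30) and CXCL3 by 2.98 ± 0.09 (adjusted p = 3.1e-26), while CXCL6 fell by 5.06 ± 0.21 on the log2 scale (adjusted p = 1.9e-18). CXCL5 was not called, at -0.01 with a 95% interval of -0.71 to 0.68 (adjusted p = 0.97). In dhelix FOXP2 + CHIR against CHIR, IL8 rose by 4.51 ± 0.09 (adjusted p = 5.8e-31), CXCL3 by 2.50 ± 0.10 (adjusted p = 2.8e-23) and CXCL5 by 1.55 ± 0.28 (adjusted p = 7.3e-06), and CXCL6 fell by 3.62 ± 0.18 (adjusted p = 1.7e-16). That was 33.4-fold less CXCL6 RNA with WT FOXP2 and 12.3-fold less with dhelix FOXP2, ranks 31 and 35 from the bottom of 18485 genes. These comparisons share the CHIR libraries. With WT FOXP2, 2 of the 4 genes rose and 1 fell, where 38.2% of all genes rose and 40.2% fell, and 3 did not overlap, beside 60.7% of all genes. With dhelix FOXP2, 3 rose and 1 fell, where 37.0% of all genes rose and 38.9% fell, and 4 did not overlap, beside 56.6%. These values come from edgeR with Benjamini-Hochberg adjustment, with SE after ±.

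When CHIR was added to FOXP2-transfected cells, CXCL3 rose with either construct and IL8 moved in opposite directions. CXCL3 rose by 1.48 ± 0.08 in WT FOXP2 + CHIR against WT FOXP2 (adjusted p = 6.2e-19) and by 1.49 ± 0.08 in dhelix FOXP2 + CHIR against dhelix FOXP2 (adjusted p = 1.9e-18), in edgeR. IL8 fell by 0.25 ± 0.06 in WT FOXP2 + CHIR against WT FOXP2 (adjusted p = 0.0008), and rose by 0.90 ± 0.07 in dhelix FOXP2 + CHIR against dhelix FOXP2 (adjusted p = 1.8e-14). In neither pair did the IL8 libraries overlap. CXCL5 rose in both, by a count ratio of 35.2 with an interval of 9.38 to 296 over WT FOXP2 (adjusted p = 2.1e-07) and by 4.30 ± 0.38 on the log2 scale over dhelix FOXP2 (adjusted p = 2.3e-12). CXCL6 was at least 3.03-fold higher in WT FOXP2 + CHIR than in WT FOXP2 cells (adjusted p = 4.7e-06). It had a count ratio of 168, interval 29.5 to 6679.9, in dhelix FOXP2 + CHIR over dhelix FOXP2 cells with their 1 count (adjusted p = 4.6e-10). With WT FOXP2, 3 genes rose and 1 fell, where 34.8% of all genes rose and 30.2% fell, and 4 did not overlap, beside 53.8% of all genes. With dhelix FOXP2, 4 rose, where 34.1% of all genes rose and 29.1% fell, and 4 did not overlap, beside 53.3%. CXCL5 and CXCL6 passed the filter on low counts through groups with CHIR, so their rises in these counts follow in part from the filter. FOXP2 RNA was also higher with CHIR, by 1.11 ± 0.09 for WT FOXP2 (adjusted p = 3.6e-12) and 1.34 ± 0.09 for dhelix FOXP2 (adjusted p = 7.2e-14) on the log2 scale, and its part in these changes was not tested.

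**Figure D3:**
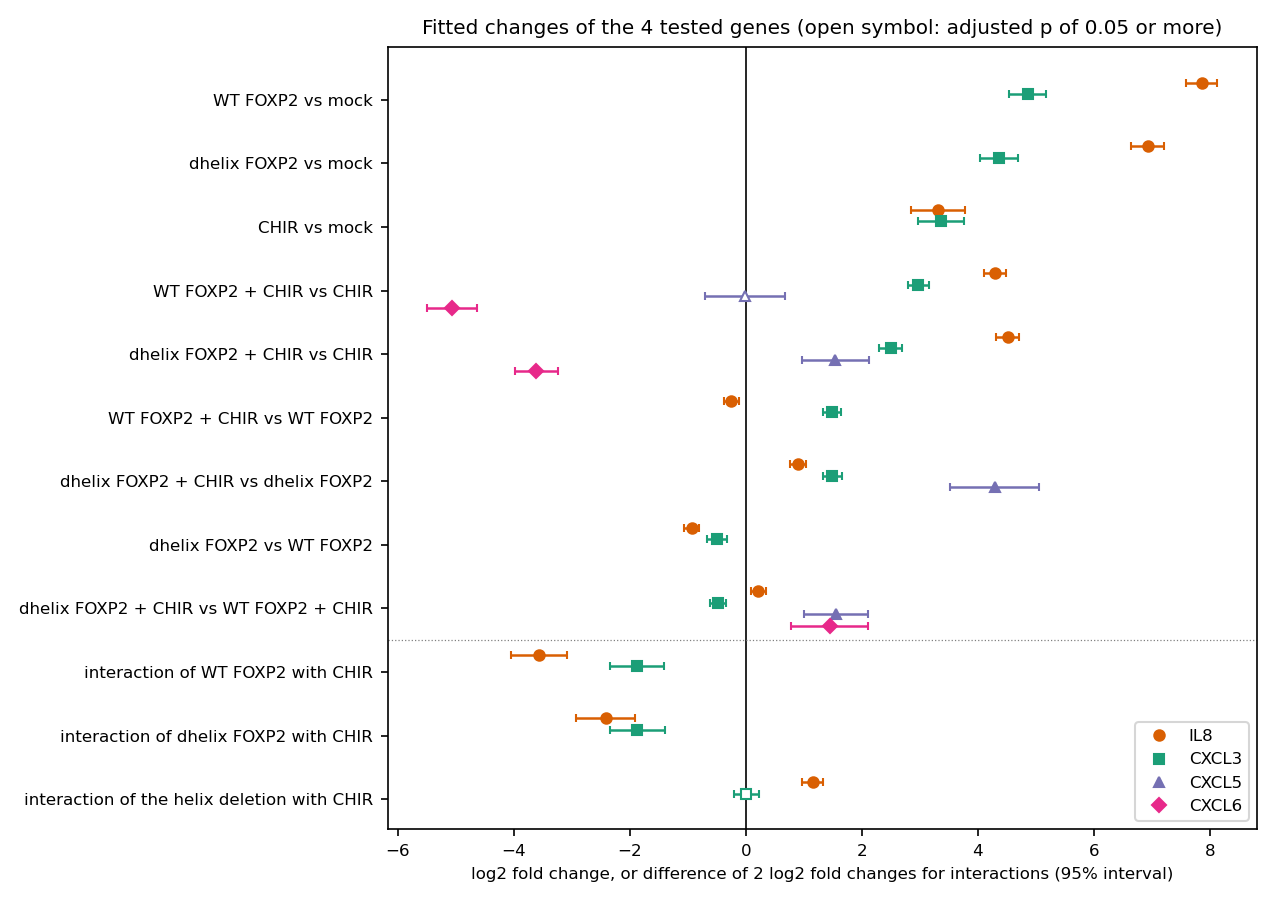
Log2 fold changes of the 4 tested genes with 95% intervals (horizontal axis) in 9 comparisons of groups and 3 interactions below the dotted line; comparisons in which a gene had 3 or fewer counts in a group, and interactions of CXCL5 and CXCL6, are left out. IL8 and CXCL3 lie right of 0 in the comparisons with mock or CHIR, and CXCL6 lies at -5.06 and -3.62 in the comparisons with CHIR.

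IL8 and CXCL3 were higher with FOXP2 and with CHIR, and with both they were less than the product of the separate fold changes would give. The change in WT FOXP2 + CHIR against CHIR minus that in WT FOXP2 against mock was -3.57 ± 0.24 for IL8 (adjusted p = 1.3e-15) and -1.88 ± 0.23 for CXCL3 (adjusted p = 5.4e-09) on the log2 scale in edgeR. The same difference for dhelix FOXP2 was -2.42 ± 0.25 for IL8 (adjusted p = 1.5e-10) and -1.87 ± 0.23 for CXCL3 (adjusted p = 7.2e-09). For WT FOXP2 this difference was called for 2 of the 4 genes, both lower, where 30.7% of all genes were higher and 34.9% lower. For dhelix FOXP2 it was called for 2 of the 4 genes, both lower, where 31.2% were higher and 33.7% lower. For CXCL5 and CXCL6 the difference was not called in either, and it rests on groups with 0 to 13 counts without CHIR.

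The deletion of residues 264 to 272 was compared directly between the constructs. In dhelix FOXP2 against WT FOXP2, IL8 fell by 0.94 ± 0.07 (adjusted p = 9.7e-14), 1.91-fold with no overlap, and CXCL3 fell by 0.49 ± 0.08 (adjusted p = 1.8e-05) with overlap, in edgeR. CXCL5 was not called (13 against 2 counts, adjusted p = 0.13), nor was CXCL6 (1 against 0 counts). These 2 genes were lower where 18.7% of all genes were lower and 16.9% higher, and 1 of the 4 did not overlap, beside 29.9% of all genes. In dhelix FOXP2 + CHIR against WT FOXP2 + CHIR, CXCL5 rose by 1.56 ± 0.27 (adjusted p = 2.9e-05) and CXCL6 by 1.45 ± 0.32 (adjusted p = 0.001), while CXCL3 fell by 0.48 ± 0.07 (adjusted p = 1.8e-06), and none of these overlapped. IL8 rose by 0.21 ± 0.06 (adjusted p = 0.0099) with overlapping libraries, and without WT FOXP2 + CHIR replicate 5 it was at 0.17 with an adjusted p of 0.064. That made 3 higher and 1 lower, where 16.6% of all genes were higher and 13.9% lower, and 3 did not overlap, beside 24.5%. FOXP2 RNA was at 5319 CPM with dhelix FOXP2 against 7076 CPM with WT FOXP2, and its part was not tested.

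IL8 and CXCL3 differed in how the deletion and CHIR combined. The difference between the constructs changed with CHIR for IL8 by 1.15 ± 0.09 on the log2 scale (adjusted p = 8.1e-11 in edgeR). For CXCL3 the change was 0.01, with a 95% interval of -0.21 to 0.23 (adjusted p = 0.96). IL8 was the only 1 of the 4 genes called, and it was higher, where 8.93% of all genes were called higher and 5.29% lower.

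Over the 30 libraries, IL8 and CXCL3 had a Pearson correlation of 0.94 on log2 CPM, CXCL5 and CXCL6 of 0.71, and CXCL6 and IL8 of -0.07. These describe libraries that share groups and treatments. Among 16731 genes compared, those most like IL8 were TFRC, the transferrin receptor (0.994), GSPT1 (0.993) and NUDC (0.991). Those most like CXCL3 were ITPR1, an intracellular calcium channel (0.993), AATF (0.991) and AKAP8 (0.990). For CXCL5 they were KRT74 (0.945), DPP4 (0.939) and PVRL4 (0.930). For CXCL6 they were RP11-415D17.3, AC002539.1 and MTHFD2P1, each at 0.987.

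The genes around the cluster were taken by position from the RefSeq gene order, as the protein-coding genes between the outermost members and 5 on each side. RASSF6, a Ras-association domain family gene next to IL8, was at 1.53 ± 0.279 CPM in dhelix FOXP2 + CHIR cells, 0.825 ± 0.103 in WT FOXP2 + CHIR cells, 0.0976 ± 0.0297 in dhelix FOXP2 cells and 0.0892 ± 0.0774 in WT FOXP2 cells. It was at 14.1 ± 1.89 CPM in CHIR cells and 2.86 ± 0.510 CPM in mock cells (SD, n = 5). RASSF6 thus had its highest level in CHIR cells, as CXCL6 did, although IL8 lies between them. It fell by 4.09 ± 0.14 in WT FOXP2 + CHIR against CHIR (adjusted p = 8.4e-25), by 3.21 ± 0.13 in dhelix FOXP2 + CHIR against CHIR (adjusted p = 1.4e-22) and by 4.94 ± 0.28 in WT FOXP2 against mock (adjusted p = 1.5e-18). ALB, the albumin gene on the same side, was at 3.69 ± 1.42 CPM in CHIR cells, against 0.0132 CPM in mock cells, and fell by 3.98 ± 0.35 in WT FOXP2 + CHIR against CHIR (adjusted p = 1.6e-12).

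On the other side, past CXCL2, the epidermal growth factor family genes EREG and AREG were higher with FOXP2 and with CHIR. AREG, amphiregulin, was at 8.67 ± 1.32 CPM in dhelix FOXP2 + CHIR cells, 11.7 ± 1.88 in WT FOXP2 + CHIR cells, 2.10 ± 0.244 in dhelix FOXP2 cells, 3.13 ± 0.739 in WT FOXP2 cells, 2.31 ± 0.640 in CHIR cells and 0.142 ± 0.0715 in mock cells. It rose by 4.50 ± 0.32 in WT FOXP2 against mock (adjusted p = 1.9e-15) and by 4.03 ± 0.35 in CHIR against mock (adjusted p = 7.1e-13). EREG, epiregulin, rose in the same comparisons by 2.13 ± 0.18 (adjusted p = 7.8e-13) and 2.45 ± 0.18 (adjusted p = 1.9e-14). Inside the cluster, the platelet chemokine genes PF4 and PF4V1 had 0 counts in every library. MTHFD2L, a mitochondrial folate enzyme gene next to CXCL2, was at 22.6 CPM in WT FOXP2 cells, 40.0 CPM in CHIR cells and 16.4 CPM in mock cells.

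**Figure D4:**
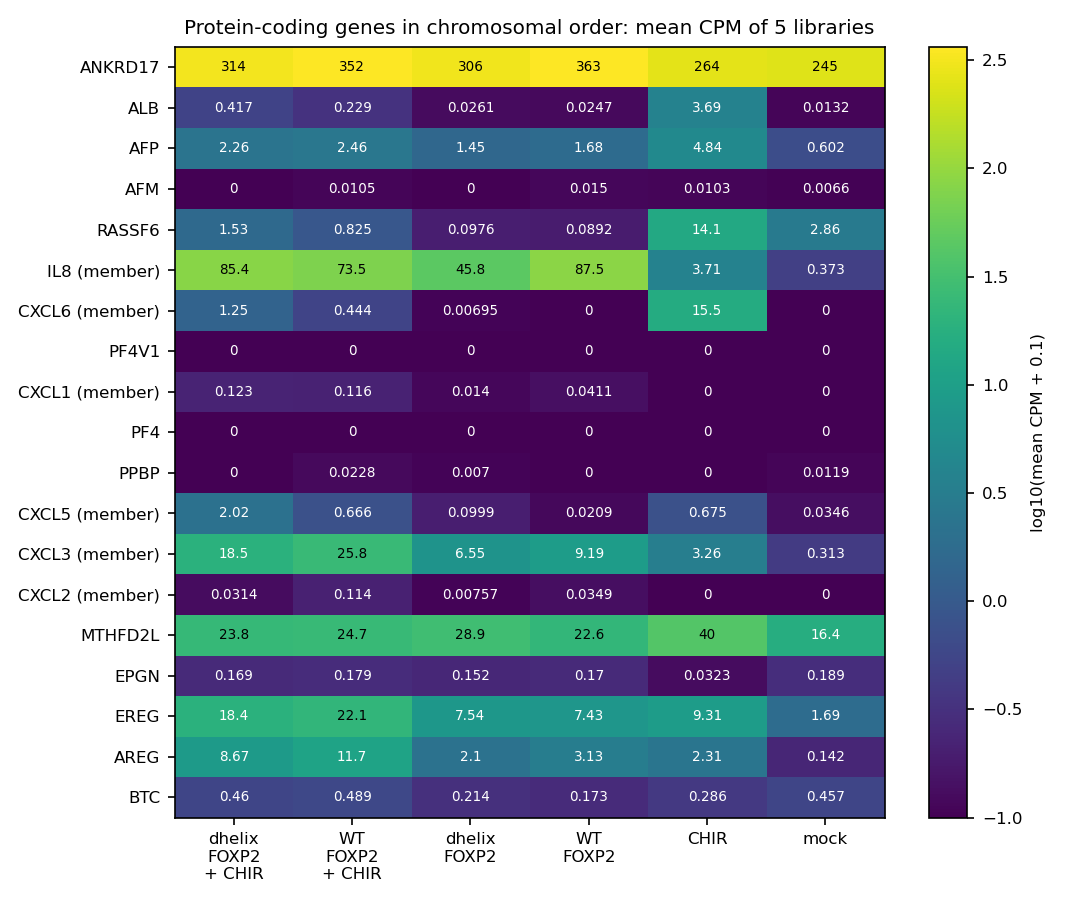
Mean CPM of 5 libraries (numbers, with colour on a log10 scale) for the 6 members and the protein-coding genes around them, in their order along the chromosome. RASSF6, ALB and CXCL6 are highest in CHIR cells at 14.1, 3.69 and 15.5 CPM, whereas IL8, CXCL3, EREG and AREG are highest in groups with FOXP2.

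CXCR1 and CXCR2, the signalling receptors of these chemokines, were at or near 0 in these cells. CXCR1 had at most 4 counts over the libraries of a group, and CXCR2 averaged 0.350 CPM in dhelix FOXP2 + CHIR cells, 0.223 CPM in WT FOXP2 + CHIR cells and 0.0813 CPM or less in the other groups. DARC, a decoy receptor that binds them without signalling, averaged 0.274 CPM in WT FOXP2 cells, 0.138 CPM in CHIR cells and 3.50 CPM in mock cells. Against mock it fell by 3.70 ± 0.27 in WT FOXP2 cells (adjusted p = 3.5e-15) and fell by 4.65 ± 0.32 in CHIR cells (adjusted p = 1.1e-15). Against CHIR cells it rose, by 1.75 ± 0.49 to 0.455 CPM in WT FOXP2 + CHIR cells (adjusted p = 0.0015) and by 1.63 ± 0.51 to 0.428 CPM in dhelix FOXP2 + CHIR cells (adjusted p = 0.0045). The effect of FOXP2 on DARC differed with CHIR, by 5.46 ± 0.56 for WT FOXP2 (adjusted p = 1.1e-10) and 4.72 ± 0.56 for dhelix FOXP2 (adjusted p = 3e-09).

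Among 38 listed inducers and transcription factors of the family, 33 were tested. In WT FOXP2 against mock, 24 rose and 6 fell, with a median log2 fold change of 0.59, where 39.9% of all genes rose, 41.6% fell and the median was -0.02. In dhelix FOXP2 against mock, 24 rose and 7 fell, where 39.6% of all genes rose and 40.9% fell, and in CHIR against mock 22 rose and 7 fell, where 38.8% rose and 35.3% fell. IL1A, interleukin-1 alpha, an inducer of these chemokines, was at 4.98 ± 0.369 CPM in dhelix FOXP2 cells, 11.2 ± 1.30 CPM in WT FOXP2 cells, 1.36 ± 0.423 CPM in CHIR cells and 0.0903 ± 0.0681 CPM in mock cells. It rose against mock by 6.80 ± 0.23 in WT FOXP2 cells (adjusted p = 1.2e-25), 5.63 ± 0.26 in dhelix FOXP2 cells (adjusted p = 3.9e-21) and 3.75 ± 0.37 in CHIR cells (adjusted p = 1.3e-11). It was lower in dhelix FOXP2 than in WT FOXP2 cells, at -1.18 ± 0.11 (adjusted p = 4.4e-11), and fell by 0.95 ± 0.11 in WT FOXP2 + CHIR against WT FOXP2 (adjusted p = 1.1e-09). IL1A was at 4.78 ± 0.250 CPM in dhelix FOXP2 + CHIR cells and 5.82 ± 1.05 CPM in WT FOXP2 + CHIR cells. IL1A, like IL8, was higher in each comparison of a FOXP2 group with mock or CHIR cells. Where IL8 rose, IL1A was not called in dhelix FOXP2 + CHIR against dhelix FOXP2, at -0.06 ± 0.12 (adjusted p = 0.7), or in dhelix FOXP2 + CHIR against WT FOXP2 + CHIR, at -0.29 ± 0.12 (adjusted p = 0.075). The part of IL1A in the IL8 levels was not tested. IL1B and TNF had 0 counts in CHIR and mock libraries and group means of at most 0.263 CPM.

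The list also held NF-κB and AP-1 genes. RELB, a subunit of the alternative NF-κB pathway, was at 72.8 ± 4.15 CPM in dhelix FOXP2 cells, 87.4 ± 6.39 CPM in WT FOXP2 cells, 25.2 ± 4.22 CPM in CHIR cells and 7.14 ± 0.801 CPM in mock cells. TNFAIP3, the NF-κB feedback inhibitor A20, rose by 3.66 ± 0.07 in WT FOXP2 against mock (adjusted p = 5.8e-33) and by 1.76 ± 0.08 in CHIR against mock (adjusted p = 3.3e-21). FOSL1, an AP-1 subunit, rose by 4.11 ± 0.07 in WT FOXP2 cells (adjusted p = 1.7e-32), 3.54 ± 0.07 in dhelix FOXP2 cells (adjusted p = 1.2e-30) and 2.17 ± 0.07 in CHIR cells (adjusted p = 6.9e-24) against mock. FOS, another AP-1 subunit, fell in CHIR against mock by 1.11 ± 0.10 (adjusted p = 3.8e-12). It had the largest rise of the tested genes of the list when FOXP2 was added to CHIR, 3.51 ± 0.09 with WT FOXP2 (adjusted p = 7.4e-28) and 3.56 ± 0.09 with dhelix FOXP2 (adjusted p = 8.4e-28). TLR3, a sensor of double-stranded RNA, fell by 2.95 ± 0.27 in WT FOXP2 against mock (adjusted p = 1.8e-12).

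**Figure D5:**
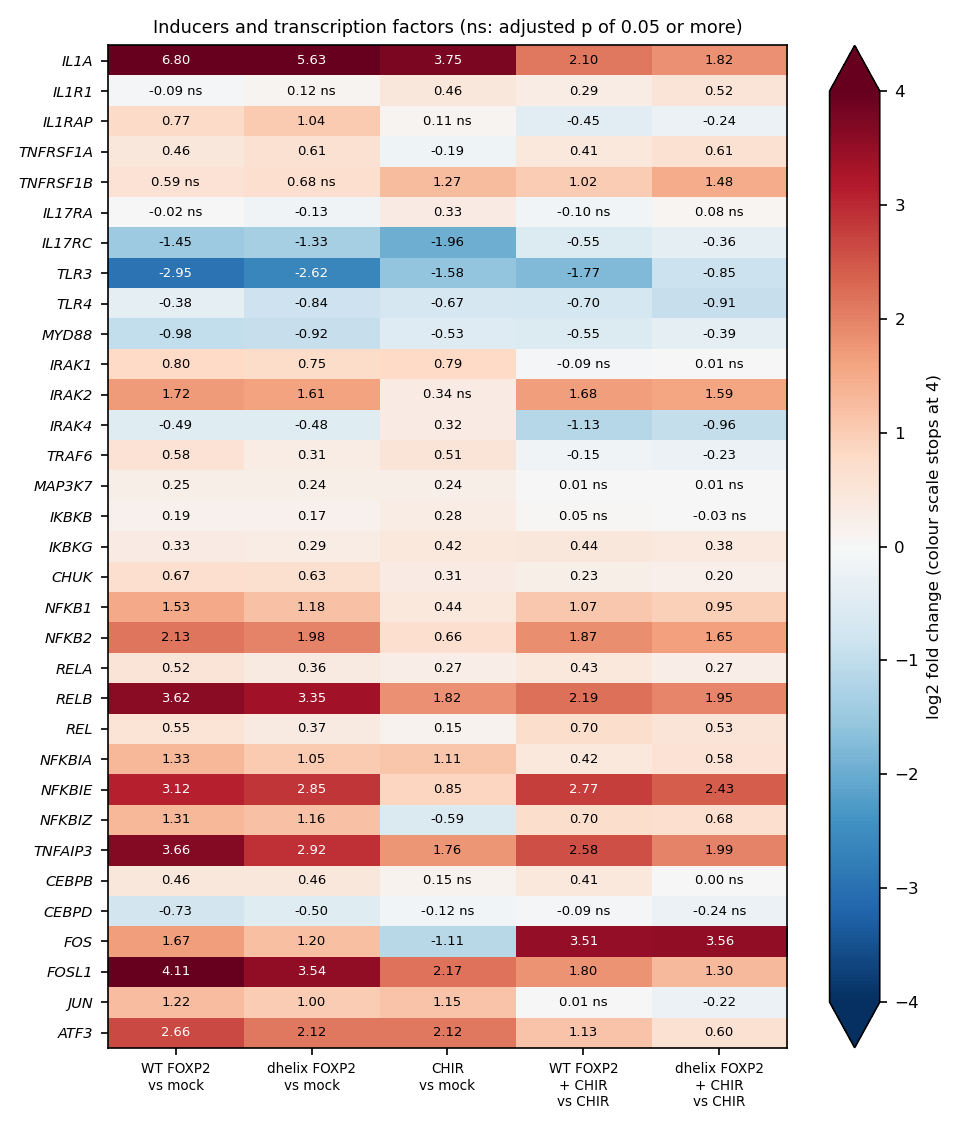
Log2 fold changes (numbers and colour) of the 33 tested inducers and transcription factors of the family in 5 comparisons, with ns for an adjusted p of 0.05 or more. IL1A, FOSL1, RELB and TNFAIP3 are higher in all 5 comparisons, and FOS is lower in CHIR against mock at -1.11 and higher in the other 4.

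Regulators of chemokine mRNA decay were also measured. Of 10 listed, 8 rose and 1 fell in WT FOXP2 against mock, with a median log2 fold change of 0.46, where 39.9% of all genes rose and 41.6% fell. In CHIR against mock 5 rose and 1 fell, a share of rises nearer to that of all genes, of which 38.8% rose and 35.3% fell. ZC3H12A, the ribonuclease regnase-1, which degrades inflammatory mRNAs, was at 66.8 ± 3.92 CPM in dhelix FOXP2 + CHIR cells, 89.4 ± 2.73 CPM in WT FOXP2 + CHIR cells and 13.2 ± 1.69 CPM in CHIR cells, a rise of 2.77 ± 0.07 with WT FOXP2 (adjusted p = 3.3e-29). ZFP36L1, an AU-rich element binding protein, was highest in CHIR cells at 1571 CPM, against 415 CPM in mock cells, and fell by 1.17 ± 0.04 in WT FOXP2 + CHIR against CHIR (adjusted p = 1.9e-25).

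Other chemokine genes moved in both directions. Of 35 listed, 12 were tested, and 3 rose and 9 fell in WT FOXP2 against mock, where 39.9% of all genes rose and 41.6% fell. In dhelix FOXP2 against mock 3 rose and 9 fell, where 39.6% of all genes rose and 40.9% fell, and in CHIR against mock 2 rose and 8 fell, where 38.8% rose and 35.3% fell. CCL3 and CCL4, with 0 and 1 counts over the mock libraries, passed the filter on low counts through groups with FOXP2, and CXCL12 through CHIR cells. These counts of rises thus follow in part from the filter. CXCL14, a chemokine of epithelia and fibroblasts, was at 2.80 ± 0.341 CPM in WT FOXP2 cells, 9.32 ± 1.39 CPM in CHIR cells and 789.7 ± 26.4 CPM in mock cells. CCL20, which attracts lymphocytes and dendritic cells, rose by 2.92 ± 0.13 in WT FOXP2 against mock (adjusted p = 2.1e-21). CCL3 had 0 counts in mock libraries and was at least 19.7-fold higher in WT FOXP2 cells, against a floor of 3 counts per library. CCL2, a monocyte chemoattractant, fell by 3.23 ± 0.15 in CHIR against mock (adjusted p = 3.2e-21) and rose by 2.29 ± 0.16 in WT FOXP2 + CHIR against CHIR (adjusted p = 2.5e-15).

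Of 10 other cytokine genes known as NF-κB targets, 9 were tested, and 6 rose and 2 fell in WT FOXP2 against mock, where 39.9% of all genes rose and 41.6% fell. In CHIR against mock 4 rose and 2 fell, where 38.8% of all genes rose and 35.3% fell. IL24 was at 80.3 ± 2.33 CPM in dhelix FOXP2 cells, 104 ± 8.12 CPM in WT FOXP2 cells, 11.0 ± 2.25 CPM in CHIR cells and 0.202 ± 0.0818 CPM in mock cells. IL11 rose by 3.74 ± 0.07 (adjusted p = 6.2e-34) and IL6 by 3.66 ± 0.28 (adjusted p = 1.2e-14) in WT FOXP2 against mock. CSF3, granulocyte colony-stimulating factor, which drives neutrophil production, had 0 counts in CHIR and mock libraries. It was at least 13.9-fold higher in WT FOXP2 than in mock cells and at least 32.2-fold higher in WT FOXP2 + CHIR than in CHIR cells. In WT FOXP2 + CHIR against CHIR all 9 tested rose, where 38.2% of all genes did. IL6 was at 0.0338 CPM in CHIR cells and 0.112 CPM in mock cells. It and CSF3 passed the filter on low counts through groups with FOXP2, so these counts of rises follow in part from the filter.

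Markers of other cell types differed between the groups. The summed level of 12 leukocyte and neutrophil markers was 14.6 to 16.4 CPM per library in dhelix FOXP2 + CHIR cells, 19.3 to 22.5 CPM in WT FOXP2 + CHIR cells, 12.1 to 14.1 CPM in dhelix FOXP2 cells, 13.0 to 14.7 CPM in WT FOXP2 cells, 2.36 to 3.09 CPM in CHIR cells and 0.392 to 0.894 CPM in mock cells. Of the 12, 4 were tested, and 3 rose and 1 fell in WT FOXP2 against mock, where 39.9% of all genes rose and 41.6% fell. The 3 that rose were ITGAM, CD3D and MPO, at 0.123, 0.0688 and 0.0185 CPM in mock cells. They passed the filter on low counts through groups other than mock, and PTPRC through CHIR cells, so these counts follow in part from the filter. ITGAM made up most of the sum in WT FOXP2 and WT FOXP2 + CHIR cells, at 10.9 and 16.5 CPM, and was at 0.123 CPM in mock cells. At most 3 of the 12 averaged 1 CPM or more in a group, and S100A12 had 0 counts in every library. PTPRC, the gene of the leukocyte marker CD45, was at 0.193 CPM in dhelix FOXP2 + CHIR cells, 0.374 CPM in WT FOXP2 + CHIR cells, 0.133 CPM in dhelix FOXP2 cells, 0.102 CPM in WT FOXP2 cells, 1.58 CPM in CHIR cells and 0.301 CPM in mock cells. Unlike the sum, PTPRC fell with FOXP2, by 2.05 ± 0.28 in WT FOXP2 + CHIR against CHIR (adjusted p = 2.5e-08) and by 1.57 ± 0.51 in WT FOXP2 against mock (adjusted p = 0.0057). The sum of 4 endothelial markers was 40.5 to 49.0 CPM in dhelix FOXP2 + CHIR cells, 17.8 to 26.1 CPM in WT FOXP2 + CHIR cells, 8.70 to 10.8 CPM in dhelix FOXP2 cells, 3.57 to 4.43 CPM in WT FOXP2 cells, 3.08 to 4.46 CPM in CHIR cells and 6.86 to 9.06 CPM in mock cells. VWF made up most of the sum in both groups with FOXP2 and CHIR, at 41.2 CPM with dhelix FOXP2. Against CHIR cells VWF rose by 3.93 ± 0.12 with dhelix FOXP2 (adjusted p = 2.2e-25 in edgeR) and by 2.89 ± 0.13 with WT FOXP2 (adjusted p = 6.6e-21). No other marker of the 4 averaged 1 CPM or more in those groups. In WT FOXP2 against mock 1 of the 4 rose and 3 fell, among them KDR by 2.89 ± 0.32 (adjusted p = 1.7e-10). The sum of 5 epithelial markers was 9.56 to 10.8 CPM in dhelix FOXP2 + CHIR cells, 8.41 to 10.5 CPM in WT FOXP2 + CHIR cells, 7.11 to 8.59 CPM in dhelix FOXP2 cells, 4.94 to 6.58 CPM in WT FOXP2 cells, 8.49 to 10.6 CPM in CHIR cells and 30.3 to 35.2 CPM in mock cells. KRT14 made up most of the mock sum, at 24.8 CPM. Of the 4 tested, 1 rose and 3 fell in WT FOXP2 against mock, and the 1 that rose was CDH1, by 1.81 ± 0.23 (adjusted p = 4.3e-09). The part of these markers in the chemokine levels was not tested.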

How the data were processed

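Paired-end stranded mRNA libraries of U2OS cells were sequenced on a NextSeq, per the labels' protocols. The authors deposited whole-number read counts per gene, not normalised. Per the submitters' processing notes, tools included featureCounts, STAR (2.6.1a), Subread and DESeq2, with build hg19. No source used here gives the strand setting or annotation. The pseudogene PPBPP1 overlaps CXCL6 on the same strand, which no strand setting would separate, so counts of CXCL6 are uncertain there. The 30 libraries entered 1 edgeR fit (version 4.0.16, R 4.3.3) with a mean per group, TMM scaling and the robust quasi-likelihood test, on the 18485 of 57373 genes that passed edgeR's default expression filter. P-values were adjusted by Benjamini-Hochberg over all genes tested, with a threshold of 0.05, in 9 comparisons of groups and 3 interactions. The SE is the log2 fold change divided by the square root of F. The fit was tested on simulated data.

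CPM use the scaled library sizes. A group with 0 counts was given a floor of 3 counts per library, and a group with 1 to 3 counts a ratio with a 95% counting interval; both cover counting error only. The members, gene lists and tests were chosen with earlier results of these data known. Named genes were the 6 members, FOXP2 and AXIN2, up to 4 genes per list with the largest called change, and the 3 genes most like each tested member. Neighbours, markers and listed genes outside that rule were named after their values were seen. Alternatives were DESeq2 size factors, DESeq2 1.42.0, the replicate number as a block, other filters on low counts, library sizes without FOXP2, the compared groups alone, each library left out in turn, and 3 libraries left out together. No pair of replicates agreed within sampling noise. Promoters come from RefSeq (GRCh38.p14) and transcripts from GENCODE 29, neither of the build of the counts, and Biopython aligned the promoters.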

Additional observations from a re-analysis of the deposited data

Results flagged for a closer look

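Several single libraries stood apart from the other 4 of their group by Dixon's criterion, which chance meets in about 1 of 20 groups of normally distributed values. Of 42 sets of 5 values examined, 5 held a library that stood apart. A group with counts in only 1 library meets the criterion by construction, as CXCL2 and CXCL6 in dhelix FOXP2 cells and CXCL5 in mock cells did. The number found is therefore not to be set against that rate. CXCL5 was at 1.28 CPM in CHIR replicate 1, and the next highest CHIR library was at 0.613 CPM. It was at 0.173 CPM in mock replicate 5, where the other mock libraries were at 0. CXCL2 was at 0.0378 CPM in dhelix FOXP2 replicate 4 and CXCL6 at 0.0347 CPM in dhelix FOXP2 replicate 3, and each of these is 1 count. FOXP2 was at 1.33 CPM in CHIR replicate 4, and the next highest CHIR library was at 0.357 CPM.

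The effects of FOXP2 with and without CHIR differed by the interaction test of edgeR for IL8 and CXCL3. The difference of log2 fold changes with WT FOXP2 was -3.57 for IL8 and -1.88 for CXCL3, and with dhelix FOXP2 it was -2.42 for IL8 and -1.87 for CXCL3. The effect of the deletion on IL8 differed with CHIR by 1.15.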

How the results depend on the processing

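Of 972 alternative values for the 4 tested genes in 12 comparisons, 967 kept their side of the threshold, and no called change reversed direction. Changes that were not called could change sign, as CXCL5 in WT FOXP2 against mock did, at -0.43 with alternatives from -0.97 to 2.10. CXCL5 in dhelix FOXP2 against mock passed without mock replicate 5 (4.13, edgeR adjusted p = 0.0076, against 0.12 with all libraries and 0.052 to 0.27 in the other alternatives), and leaving out that library moved CXCL5 in CHIR against mock to a fitted 6.83, since the other 4 mock libraries hold 0 counts. IL8 in dhelix FOXP2 + CHIR against WT FOXP2 + CHIR lost its call without WT FOXP2 + CHIR replicate 5. CXCL6 interactions passed in DESeq2 at -5.12 for WT FOXP2 (adjusted p = 0.00027) and -3.83 for dhelix FOXP2 (adjusted p = 0.0068). The gene had 0 counts in mock and WT FOXP2 libraries and 1 count in those of dhelix FOXP2, so its change with FOXP2 in the absence of CHIR cannot be estimated. For WT FOXP2 the edgeR value of the interaction was the same as that of WT FOXP2 + CHIR against CHIR, -5.06. No interaction is read from these values. CXCL6 in dhelix FOXP2 + CHIR against dhelix FOXP2 was at a fitted 7.69 without dhelix FOXP2 replicate 3, which holds its only count. Without the filter, CXCL1 and CXCL2 were tested too, and 4 rather than 2 members passed in WT FOXP2 against mock and 5 rather than 3 in WT FOXP2 + CHIR against CHIR. Both added calls in WT FOXP2 against mock were at an edgeR adjusted p of 0.049, on 4 against 0 counts each. CXCL1 also passed in dhelix FOXP2 + CHIR against CHIR (adjusted p = 0.00068) and against dhelix FOXP2 (adjusted p = 0.0094), and CXCL2 passed in neither. For the interaction of the deletion with CHIR, 2627 genes passed in the fit of all libraries and 4274 in the fit of the compared groups alone. The replicate numbers do not pair the samples, as same-numbered deviations correlated at -0.08 to 0.14; with the replicate block, CXCL6 in the interaction of dhelix FOXP2 with CHIR was at -4.77 (adjusted p = 0.046), and no other call on the members changed. No scaling moved the median of all genes by over 0.1 on the log2 scale. Levels of CXCL1, CXCL2, CXCL5 and CXCL6 near 0 are limited by depth.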
